A study of Homo sapiens with 12 samples.

Results

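Examined were 10 core enzymes of glycolysis that act between glucose phosphate and pyruvate: GPI, ALDOA, ALDOC, TPI1, GAPDH, PGK1, PGAM1, ENO1, ENO2 and PKM. The phosphofructokinases, which act between GPI and the aldolases, are not among them and are counted with the other pathway genes. Members were taken by gene symbol from the 26475 symbols of the deposited count table, by a rule that uses names and no measured value. The list itself was chosen with earlier results of these data known. All 10 were present, and all 10 passed the filter on low counts that left 14582 genes for testing.

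The study asked how pancreatic cancer cells that survive an inhibitor of lactate dehydrogenase A (LDHA) differ from the cells they came from. RNA-seq was performed in MIAPaCa2 (Miapaca2 in the labels), an established line of human pancreatic ductal adenocarcinoma (PDAC). The 4 groups of 3 libraries were parental cells without drug, parental cells given the LDHA inhibitor oxamate, resistant cells without drug and resistant cells given oxamate. The labels call the drug-free cells untreated, the study's results text calls them vehicle-treated, and they are called vehicle below. Resistant cells came from the same line by continuous culture in sodium oxamate and were kept as a polyclonal population. No genetic change was made by design. Between the lines, selection, time in separate culture and earlier drug exposure cannot be told apart. The sources give no separate derivations as replicates, so p-values between the lines may not cover the spread between derivations. All 12 libraries came from cells in the same serum-supplemented medium. How long oxamate was given before RNA was taken is not given in the sources used here, nor is whether replicates were separate cultures, so p-values measure the spread between these libraries, which may be technical.

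Glycolysis splits glucose phosphate into triose phosphates, oxidises them, and harvests ATP at the steps catalysed by phosphoglycerate kinase and pyruvate kinase. LDHA follows the last step: it reduces pyruvate to lactate and returns the NAD that GAPDH needs, and oxamate, a pyruvate analogue, competes with pyruvate at that enzyme. Most of these enzyme genes are known targets of hypoxia-inducible factor (HIF), which binds a short core written ACGTG or GCGTG, and tumour cells that ferment glucose express them at high levels.

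Promoter windows of 4 members are shown because these members marked the ends of the range of responses to oxamate in parental cells described below. There ALDOC, ENO2 and PGK1 had the largest responses and ENO1 the smallest. Each window runs from 250 bases before to 50 bases after a RefSeq transcript start in build GRCh38.p14, is written 5′ to 3′ on the strand of the gene, and has in capitals every HIF core of either form on either strand. The windows are ALDOC at chr17:28576846-28577145 on the minus strand, PGK1 at chrX:78103998-78104297 on the plus strand, ENO2 at chr12:6914330-6914629 on the plus strand and ENO1 at chr1:8878637-8878936 on the minus strand.
ALDOC: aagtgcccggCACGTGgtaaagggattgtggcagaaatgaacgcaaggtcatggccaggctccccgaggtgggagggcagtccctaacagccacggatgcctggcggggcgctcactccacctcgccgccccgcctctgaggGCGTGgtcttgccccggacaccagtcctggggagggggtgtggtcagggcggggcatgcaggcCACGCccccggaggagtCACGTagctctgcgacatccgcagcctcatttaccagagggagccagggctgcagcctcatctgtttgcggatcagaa
PGK1: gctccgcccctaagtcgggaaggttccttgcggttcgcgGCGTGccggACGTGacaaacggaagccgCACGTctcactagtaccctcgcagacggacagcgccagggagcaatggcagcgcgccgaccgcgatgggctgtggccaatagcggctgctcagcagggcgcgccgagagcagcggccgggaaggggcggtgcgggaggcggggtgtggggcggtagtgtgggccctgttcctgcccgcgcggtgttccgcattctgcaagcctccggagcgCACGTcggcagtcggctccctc
ENO2: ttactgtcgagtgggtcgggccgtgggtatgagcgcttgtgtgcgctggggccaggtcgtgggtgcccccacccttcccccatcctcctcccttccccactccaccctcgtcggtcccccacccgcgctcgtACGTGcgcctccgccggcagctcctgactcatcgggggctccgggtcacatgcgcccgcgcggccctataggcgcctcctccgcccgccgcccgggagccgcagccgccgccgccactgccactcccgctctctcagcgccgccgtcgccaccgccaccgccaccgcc
ENO1: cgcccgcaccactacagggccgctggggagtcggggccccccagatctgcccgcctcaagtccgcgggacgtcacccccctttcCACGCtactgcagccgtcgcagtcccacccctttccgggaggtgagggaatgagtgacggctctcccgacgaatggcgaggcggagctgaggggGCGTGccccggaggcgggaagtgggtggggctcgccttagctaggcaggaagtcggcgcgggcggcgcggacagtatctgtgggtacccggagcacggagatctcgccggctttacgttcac
PGK1 held 3 copies of ACGTG and 1 of GCGTG. ALDOC held 3 and 2, where the palindrome CACGTG, an E box, counts on both strands. ENO2 held a single ACGTG, and ENO1 held no ACGTG and 2 copies of GCGTG. These matches are a description of the letters and were not tested as binding sites.

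Between 46698729 and 114222169 expected counts were deposited per library, and every parental library was deeper than every resistant library. The lowest count of any member in any library was 1859, for ALDOC, far above the floor of 3 counts. Replicate 3 of parental oxamate and replicate 3 of resistant vehicle cells held more of the nuclear-retained RNA MALAT1 (596.2 and 596.5 CPM) than their group mates (281.1 to 288.8 and 243.9 to 272.8 CPM), and resistant oxamate libraries held 577.3 to 742.2 CPM. Parental vehicle libraries held 183.0 to 199.4 CPM, so that every parental oxamate library was higher, as for the enzymes, and NEAT1, another nuclear-retained RNA, went likewise from between 128.3 and 155.5 to between 257.2 and 575.3 CPM. The part of these RNAs in the results was not tested beyond leaving out those 2 libraries. Without them, each member kept its direction and its call in every contrast below, except that PKM gained a call for the difference between responses. Defining markers of a carcinoma line were mixed: KRT8, KRT18 and KRT19 were abundant, KRT7 had at most 52 counts, and EPCAM and CDH1 had at most 3. The 6 epithelial markers summed to 3279 to 3671 CPM in parental and 1759 to 1850 CPM in resistant libraries, and the 4 mesenchymal markers, mostly VIM, to 9462 to 10180 and 5997 to 6445 CPM. PRSS1 and CD3E were at 0 in all libraries, PTPRC had at most 3 counts, and of the 4 immune markers CD68 alone was abundant, with group means from 57.7 CPM in resistant oxamate to 215.1 CPM in parental oxamate cells. The 5 fibroblast markers summed to 694.5 to 951.5 CPM, nearly all of it COL1A2, the 3 endothelial markers to at most 1.24 CPM and the 3 acinar markers to at most 0.0168 CPM. The epithelial, mesenchymal and immune sums were lower in resistant cells, as the enzymes were. Not every marker followed its sum. FN1 had group means of 19.2 and 21.8 CPM in resistant against 0.339 and 0.445 CPM in parental cells, and KRT7, at low counts, was also higher in resistant cells. ZEB1 was lower with oxamate in parental cells (88.2 and then 67.3 CPM), against the mesenchymal sum given next. With oxamate in parental cells the fibroblast sum went from between 694.5 and 711.7 to between 931.6 and 951.5 CPM, the immune sum from between 155.9 and 164.0 to between 211.2 and 220.2 CPM and the mesenchymal sum from between 9462 and 9583 to between 9704 and 10180 CPM, without overlap, while the epithelial sums overlapped. In resistant cells the fibroblast and epithelial sums were higher with oxamate and the immune and mesenchymal sums lower, also without overlap. The part of these markers in the results was not tested.

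The mRNA of each of the 10 enzymes rose with oxamate in parental cells. The smallest increases were those of ENO1 and PKM, 0.26 on the log2 scale, and the largest those of ALDOC and ENO2, which were 2.12-fold. Called higher at an adjusted p under 0.05 were 10 of 10 members, beside 28.3% of all genes tested, and 5 of 10 (GPI, ALDOA, ALDOC, PGK1 and ENO2) also passed a fold change of 1.5, beside 5.32% of all genes. The median log2 fold change was 0.65 over the members and 0.00 over all genes. In bulk libraries more cells with an mRNA and more of it per cell cannot be told apart. CPM, the TMM-normalised count, is a level relative to other genes and not an amount per cell.

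GPI, which interconverts glucose phosphate and fructose phosphate, measured 1411, 1379 and 1349 CPM in parental vehicle and 2540, 2504 and 2471 CPM in parental oxamate libraries. No oxamate library came near a vehicle library. The log2 fold change of GPI was 0.86 (SE 0.02, adjusted p = 1.42e-12). Here and below, adjusted p are Benjamini-Hochberg values over all genes tested from the quasi-likelihood test of edgeR, and SE is the standard error of the log2 fold change.

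The aldolases split fructose bisphosphate into a pair of triose phosphates. ALDOC, the isoform known from brain, measured 81.0, 77.4 and 78.8 CPM with vehicle and 172.7, 165.9 and 165.4 CPM with oxamate. Its log2 fold change of 1.09 (SE 0.03) stood at rank 359 by size among the 14582 genes tested. ALDOA, the widely expressed aldolase, lay between 2130 and 2224 CPM with vehicle and between 3451 and 3691 CPM with oxamate, for a log2 change of 0.72 (SE 0.03, adjusted p = 1.72e-11, edgeR). TPI1, which interconverts the triose phosphates, lay between 1429 and 1519 and then between 2073 and 2207 CPM (log2 fold change 0.55, SE 0.03). Ranges of the vehicle and oxamate libraries were apart for all of these enzymes.

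GAPDH, which oxidises glyceraldehyde phosphate with NAD, measured 9366, 8981 and 9346 CPM with vehicle and 14285, 13957 and 13055 CPM with oxamate. Its lowest oxamate library stood well above its highest vehicle library, and its log2 fold change was 0.58 (SE 0.03, adjusted p = 4.71e-10, edgeR). PGK1, the phosphoglycerate kinase of the first ATP-yielding step, measured 1064, 1041 and 1083 CPM with vehicle and 2014, 1989 and 1896 CPM with oxamate. The log2 fold change of PGK1 was 0.89 (SE 0.03, adjusted p = 4.22e-12, edgeR). PGAM1, which moves the phosphate of phosphoglycerate, went from between 661.0 and 682.0 to between 911.3 and 1006 CPM (log2 fold change 0.53, SE 0.03).

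The enolases, which form phosphoenolpyruvate, gave a wider contrast within an enzyme family than the aldolases. ENO2, the isoform known from neurons, measured 219.5, 220.9 and 220.3 CPM with vehicle and 450.1, 445.1 and 504.6 CPM with oxamate. ENO1, the widely expressed enolase, measured 2751, 2628 and 2699 CPM with vehicle and 3303, 3237 and 3132 CPM with oxamate. Both groups of libraries were apart for both genes, by a wide gap for ENO2, whose oxamate replicate 3 was the highest, and by a narrow gap for ENO1. The log2 fold changes were 1.08 (SE 0.04, adjusted p = 2.35e-11, edgeR) for ENO2 and 0.26 (SE 0.02, adjusted p = 2.01e-07, edgeR) for ENO1. PKM, whose counts pool the M1 and M2 splice forms of pyruvate kinase, measured 3003, 2885 and 2932 CPM and then 3601, 3551 and 3435 CPM, for a log2 change of 0.26 (SE 0.02, adjusted p = 1.65e-07, edgeR). The plot of levels by library shows all 10 enzymes.

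**Figure D1:**
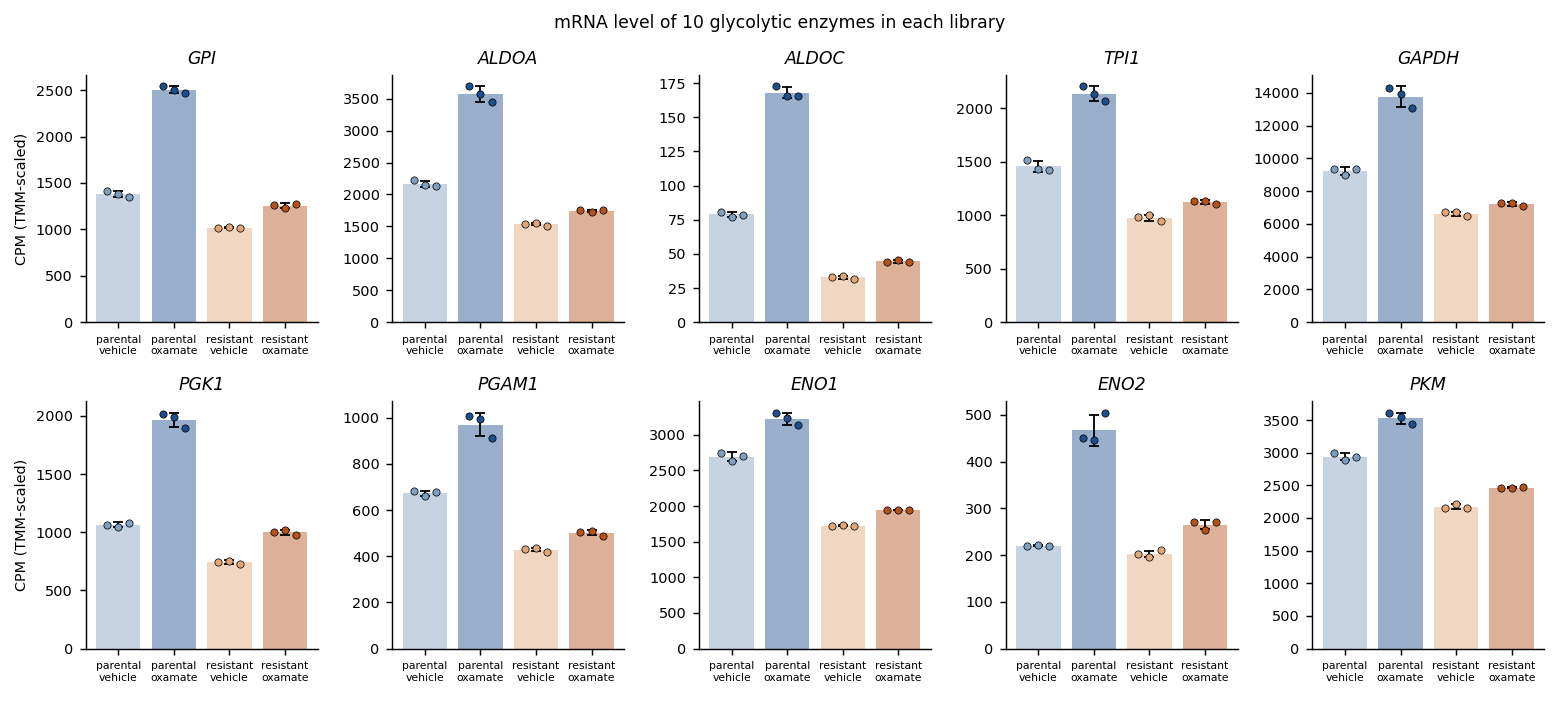
TMM-scaled CPM (vertical axis from 0) of each enzyme mRNA in the 4 groups; points are libraries, bars group means and error bars the SD of 3 libraries. Parental oxamate bars are the highest for all 10 enzymes, and resistant vehicle bars the lowest, with ENO2 in resistant vehicle cells (195.0 to 209.7 CPM) just under parental vehicle (219.5 to 220.9 CPM), an order that turned under library-size scaling.

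Resistant cells given oxamate again had more mRNA of each enzyme than resistant cells given vehicle, but in small steps. The increases ran from 1.09-fold for GAPDH to 1.35-fold for ALDOC. At an adjusted p under 0.05, 10 of 10 members were called higher, beside 9.01% of all genes tested, and 0 of 10 passed a fold change of 1.5, beside 1.16% of all genes. The members' median log2 fold change was 0.21, against 0.00 over all genes. Libraries of the vehicle and oxamate groups did not overlap for 10 of 10 members, which held for 41.0% of all genes, and in parental cells for 10 of 10 members and 61.5% of all genes.

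PGK1 and ALDOC had the largest of these increases. PGK1 went from 745.6, 756.8 and 726.2 CPM with vehicle to 998.3, 1021 and 976.8 CPM with oxamate, and ALDOC from 33.3, 33.7 and 31.8 to 44.0, 45.7 and 43.9 CPM. Their log2 fold changes were both 0.43 (SE 0.03 each, adjusted p = 6.70e-08 for PGK1 and 3.79e-07 for ALDOC, edgeR). In CPM neither gene's oxamate libraries reached the parental vehicle libraries, whose lowest values were 1041 CPM for PGK1 and 77.4 CPM for ALDOC. As a share of library counts the order turned for PGK1 (0.109 to 0.113% in resistant oxamate against 0.0975 to 0.101% in parental vehicle libraries) and held for ALDOC.

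ENO2 measured 202.0, 195.0 and 209.7 CPM with vehicle and 269.9, 254.3 and 271.5 CPM with oxamate in resistant cells, for a log2 change of 0.39 (SE 0.04, adjusted p = 1.81e-05, edgeR). In CPM, ENO2 was the only member whose resistant oxamate libraries all lay above its parental vehicle libraries (219.5 to 220.9 CPM), and for the other 9 members they all lay below. As shares of library counts, 3 members lay above (ENO2, PGK1 and GPI), 6 below, and PKM overlapped, so this order depended on scaling for GPI, PGK1 and PKM. It compares levels across both line and drug and was not tested. GPI went from between 1013 and 1025 to between 1228 and 1277 CPM (log2 fold change 0.30, SE 0.02, adjusted p = 5.01e-07, edgeR). The remaining increases were 0.22 for PGAM1, 0.20 for TPI1, 0.19 for ALDOA, 0.18 for PKM, 0.17 for ENO1 and 0.12 for GAPDH on the log2 scale. GAPDH moved least, from 6704, 6711 and 6491 CPM to 7250, 7295 and 7094 CPM (SE 0.03, adjusted p = 0.0110, edgeR). All oxamate libraries of GAPDH lay above its vehicle libraries, in the smallest step of the 10 members.

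Whether the lines responded alike was tested by an interaction contrast in the fit over 12 libraries. The response was smaller in resistant cells for 9 of 10 members at an adjusted p under 0.05 (ENO1 among them turned sign under library-size scaling), beside 21.4% of all genes tested that were called lower. The differences passed a fold change of 1.5 for 2 members, ENO2 and ALDOC, beside 2.53% of all genes, and for ENO2 alone under library-size or reference-gene scaling. The median difference was -0.46 on the log2 scale over the members and -0.01 over all genes.

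ENO2 had a difference of -0.69 (SE 0.06, adjusted p = 2.69e-07, edgeR) and ALDOC of -0.65 (SE 0.04, adjusted p = 2.29e-08, edgeR). GPI followed with -0.56 (adjusted p = 7.71e-09, edgeR) and ALDOA with -0.53 (adjusted p = 3.20e-08, edgeR). GAPDH and PGK1 both had -0.46, TPI1 had -0.35 and PGAM1 had -0.30, all past the threshold.

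ENO1 and PKM, at the end of the pathway, stood at the other end of this range. ENO1 had a difference of -0.089 (SE 0.03, adjusted p = 0.0446, edgeR), which lost its call without any of 9 of the 12 libraries and turned to 0.017 under library-size scaling. PKM had -0.082 (SE 0.03, adjusted p = 0.0629, 95% interval -0.16 to -0.0034, edgeR), which was not called, turned to 0.024 under library-size scaling and passed without the first parental vehicle library (adjusted p = 0.0291) or the third parental oxamate library (adjusted p = 0.0167). PKM also passed in the fit with a replicate block (adjusted p = 0.0394, edgeR).

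**Figure D2:**
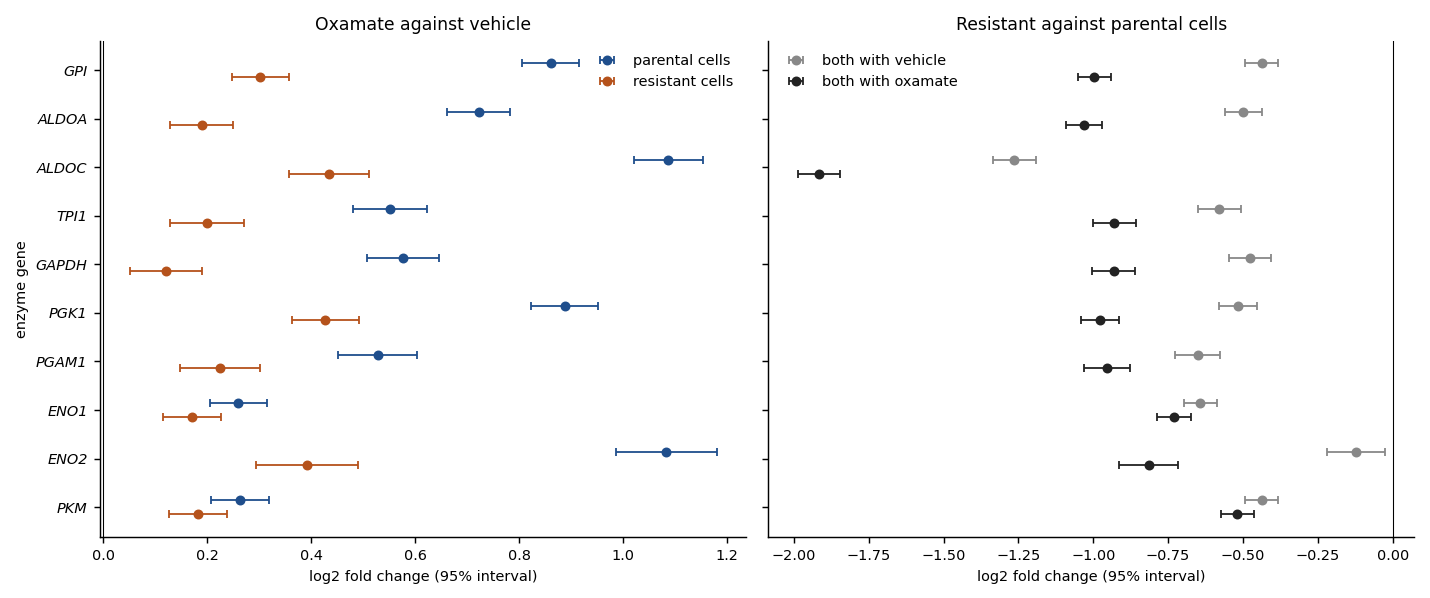
Log2 fold change (horizontal axis) of each enzyme with its 95% interval from edgeR's fit over 12 libraries, for oxamate against vehicle in each line (left) and resistant against parental cells under each treatment (right). The parental response runs from 0.26 to 1.09 and the resistant response from 0.12 to 0.43, and under oxamate all 10 differences between the lines lie at -0.52 or lower; ENO2 with vehicle (-0.12) turned sign under library-size scaling.

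Without drug, resistant cells held less mRNA of each enzyme than parental cells, although ENO2 turned direction under library-size and reference-gene scaling. The levels ran from 0.417 of the parental level for ALDOC to 0.918 for ENO2. Called lower were 10 of 10 members, beside 37.3% of all genes tested, and 3 of 10 (ALDOC, PGAM1 and ENO1) passed a fold change of 1.5, beside 6.09% of all genes. Of these, ALDOC alone passed with upper-quartile, library-size or reference-gene scaling, where PGAM1 stood at -0.58, -0.43 and -0.32 and ENO1 at -0.57, -0.42 and -0.31. The median log2 fold change was -0.51 over the members and 0.03 over all genes. Libraries of the lines did not overlap for 10 of 10 members with vehicle, against 77.6% of all genes.

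ALDOC measured 77.4 to 81.0 CPM in parental and 31.8 to 33.7 CPM in resistant vehicle libraries, for a log2 change of -1.26 (SE 0.03, adjusted p = 1.44e-14, edgeR). PGAM1 measured 431.6, 433.6 and 420.1 CPM in resistant vehicle libraries (log2 fold change -0.65, SE 0.03, adjusted p = 5.51e-11, edgeR). ENO1 measured 1723, 1737 and 1716 CPM there (log2 fold change -0.64, SE 0.02, adjusted p = 1.76e-12, edgeR). All resistant libraries of these genes lay far below the lowest parental library.

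The log2 fold changes of TPI1, PGK1, ALDOA, GAPDH, GPI and PKM lay together, at -0.58, -0.52, -0.50, -0.48, -0.44 and -0.44. ENO2 stood apart, at -0.12 (SE 0.04, adjusted p = 0.0153, edgeR), and its sign depended on how libraries were scaled. It was 0.10 with library size alone, where the median of all genes was 0.24, and 0.21 when scaled to 10 reference genes outside glycolysis, where the median of all genes was 0.35. It also lost its call without the second resistant vehicle library (adjusted p = 0.0785, edgeR). Both scalings left the other 9 members called lower, with member medians of -0.29 and -0.18.

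Under oxamate the lines stood farther apart. Resistant cells held between 0.265 (ALDOC) and 0.698 (PKM) of the parental level, and 10 of 10 members were called lower, beside 39.7% of all genes tested. A fold change of 1.5 was passed by 9 of 10 members, all but PKM, beside 11.4% of all genes, and by 7 with library-size and 3 with reference-gene scaling (GPI, ALDOA and ALDOC). The median log2 fold change was -0.94 over the members and 0.01 over all genes, and libraries did not overlap for 10 of 10 members and 81.2% of all genes.

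ALDOC measured 165.4 to 172.7 CPM in parental and 43.9 to 45.7 CPM in resistant oxamate libraries, for a log2 change of -1.92 (SE 0.03, adjusted p = 6.16e-17, edgeR). Next came ALDOA at -1.03, GPI at -0.997, PGK1 at -0.98, PGAM1 at -0.95, and TPI1 and GAPDH at -0.93. ENO2, close to equal between the lines without drug, stood at -0.82 here (SE 0.04, adjusted p = 3.19e-11, edgeR). ENO1 was at -0.73 and PKM, with 3435 to 3601 against 2455 to 2473 CPM, at -0.52 (SE 0.02, adjusted p = 8.45e-12, edgeR). With library size alone the members' median was -0.62 beside 0.34 for all genes, and with the 10 reference genes -0.53 beside 0.42, with 10 of 10 members called lower in both. The comparisons share libraries, so their values stand side by side and are not independent.

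Shares and ratios within a library need no scaling between libraries. The 10 enzymes together took 2.07, 2.01 and 2.06% of the counts in parental vehicle libraries and 2.92, 2.86 and 2.81% in parental oxamate libraries. In resistant cells they took 1.69, 1.69 and 1.67% with vehicle and 1.95, 1.95 and 1.95% with oxamate. The 4 groups did not overlap, and resistant oxamate libraries stayed under parental vehicle libraries. The differences were 0.818 percentage points with oxamate in parental cells, 0.268 in resistant cells, -0.364 between the lines with vehicle and -0.914 with oxamate (two-sided exact permutation tests, p = 0.1 each, the smallest p that 3 against 3 libraries allow). These shares rest heavily on GAPDH, the largest member.

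The minor isoforms behaved differently against their major partners. Counts of ALDOC per count of ALDOA were 0.0365 ± 0.000443 (SD, n = 3) in parental vehicle, 0.0470 ± 0.000803 in parental oxamate, 0.0215 ± 0.000401 in resistant vehicle and 0.0255 ± 0.000806 in resistant oxamate libraries. The ratio was thus higher with oxamate in each line and lower in resistant than in parental cells (log2 differences 0.36, 0.24, -0.77 and -0.89, exact permutation p = 0.1 each). Counts of ENO2 per count of ENO1 were 0.0818 ± 0.00215 in parental vehicle, 0.145 ± 0.0140 in parental oxamate, 0.117 ± 0.00495 in resistant vehicle and 0.137 ± 0.00486 in resistant oxamate libraries.

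Without drug the enolase ratio was therefore higher in resistant cells (log2 difference 0.52, exact permutation p = 0.1), the opposite side from the aldolase ratio. With oxamate the enolase ratio of the lines overlapped (log2 difference -0.08, exact permutation p = 0.6), and the highest value, 0.161, was that of the third parental oxamate library, one of those rich in MALAT1. In CPM that library had the highest ENO2 of its group and the lowest value of each of the other 9 members, and the part of MALAT1-rich RNA in this was not tested.

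**Figure D3:**
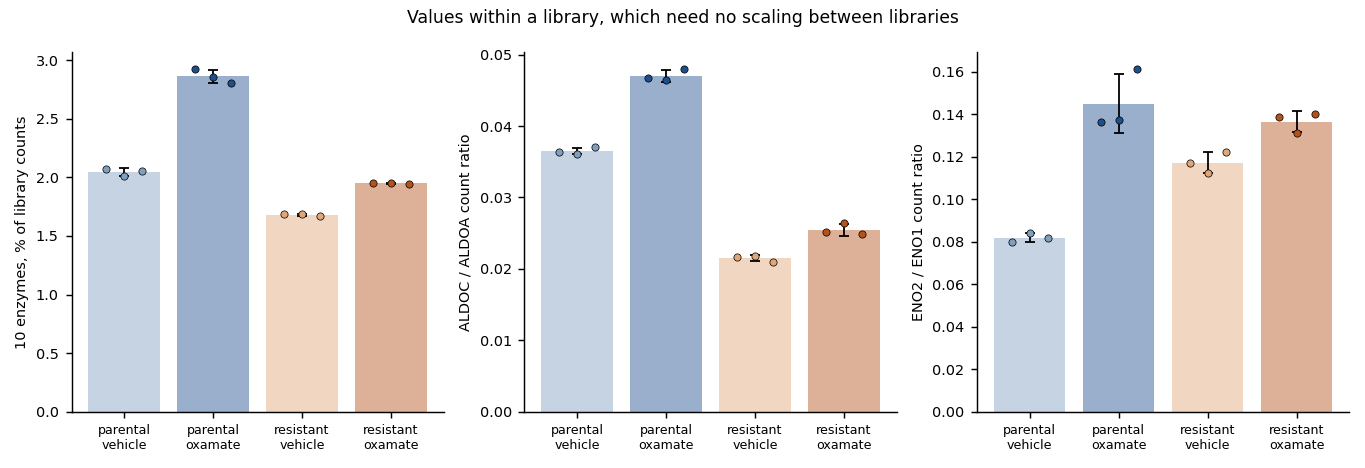
Values computed within each library (vertical axes from 0): the 10 enzymes as a percent of library counts, counts of ALDOC per count of ALDOA, and counts of ENO2 per count of ENO1; points are libraries, bars means and error bars the SD of 3. The summed share and the aldolase ratio are lower in resistant than in parental cells under both treatments, while the enolase ratio of resistant vehicle libraries (0.112 to 0.122) lies above parental vehicle (0.0798 to 0.0841).

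Per kilobase of principal transcript (GENCODE release 29), GAPDH ranked highest in each group, at 6848 ± 160.8 CPM per kb (SD, n = 3) in parental vehicle cells, followed by ALDOA at 1397 ± 33.0. ENO1 (1305 ± 29.9), TPI1 (1186 ± 41.5) and PKM (1082 ± 21.8) came next. GPI (442.6 ± 10.0), PGAM1 (367.8 ± 5.92), PGK1 (217.5 ± 4.31), ENO2 (86.4 ± 0.289) and ALDOC (42.7 ± 0.989) completed the order. From GPI down and for GAPDH and ALDOA the order was the same in all 4 groups. TPI1 passed ENO1 in parental oxamate cells (1738 ± 54.4 against 1563 ± 41.9 CPM per kb), and TPI1 and PKM overlapped in both resistant groups, as no other neighbours did. Transcript lengths differ between isoforms, from 2040 to 4194 bases for GPI, so neighbours in this order depend on the isoform counted.

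In GRCh38, GAPDH (6533927 to 6538374), TPI1 (6867119 to 6870948) and ENO2 (6913745 to 6923698) lie close together on the plus strand of chromosome 12. The other 7 members lie on 7 other chromosomes. All 3 neighbours on chromosome 12 were called higher with oxamate in parental cells, TPI1 and GAPDH with log2 fold changes of 0.55 and 0.58 and ENO2 with 1.08, and differences between them were not tested. Reads of members could be shared with overlapping or near-identical genes. The kit did not mark strand, and exons of ALDOA overlap those of a readthrough gene, AC093512.2, over 1636 bases, and exons of GAPDH those of an antisense gene, AC006064.4, over 422 bases. Listed near-identical copies held little: the largest, TPI1P2, had at most 0.0991% of the TPI1 count. Other processed pseudogenes of these genes were not analysed here.

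All 10 members had a RefSeq promoter window, 13 windows in all. ACGTG was found in a window of 7 members (GPI, ALDOA, ALDOC, TPI1, GAPDH, PGK1 and ENO2) and in no window of PGAM1, ENO1 and PKM. Counted the same way, in any window of a gene, it was in 31.7% of the 10575 tested genes with a window, and by single window in 21.4% of the 35116 promoters of the table. GCGTG was found in 5 members (ALDOC, TPI1, PGK1, ENO1 and PKM), beside 57.9% of those genes and 36.5% of all promoters. Either form was in 9 of 10 members, all but PGAM1, beside 69.5% of those genes and 48.4% of all promoters. TPI1 held both forms in its second window alone. Its first window, at the principal start of GENCODE, held neither, so its place among the 7 rests on the second window. Parental log2 fold changes ran from 0.55 to 1.09 in the 7 with ACGTG and from 0.26 to 0.53 in the 3 without, of which ENO1 and PKM hold the other form, a split noticed after the values were known and not tested. Over all genes tested with a window, 29.6% of the 3354 with ACGTG and 27.4% of the 7221 without it were called higher with oxamate in parental cells, and 8.68% and 9.18% in resistant cells. The windows of PGAM1, GAPDH and the second of TPI1 lie 1658, 510 and 574 bases after the nearest principal start of GENCODE, those of PKM and ENO2 196 and 130 bases after it and that of GPI -135 bases from it (minus meaning before), so other letters may stand at the start in use.

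**Figure D4:**
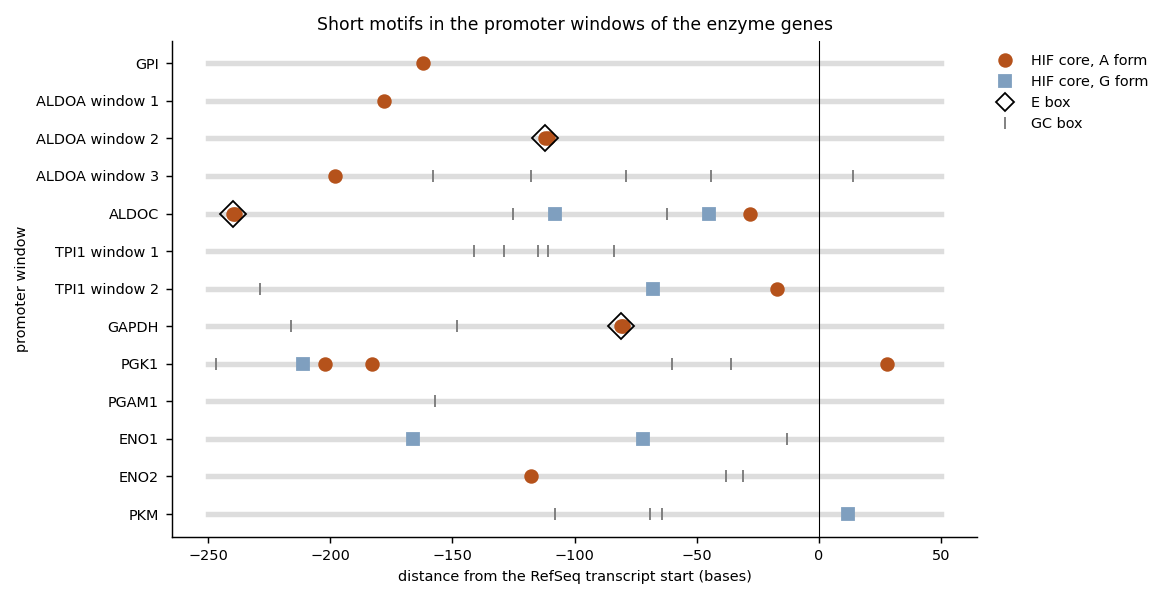
Position of short motifs, in bases from the RefSeq transcript start (horizontal axis), in the 13 promoter windows of the 10 enzymes; circles mark ACGTG, squares GCGTG, diamonds the E box CACGTG and ticks the GC box GGGCGG, on either strand. By single window, ALDOC and PGK1 hold the most HIF cores, and PGAM1 is the only gene with none in any window.

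Pathway genes outside the 10 enzymes did not all move with them. Of 40 listed genes of glucose uptake, phosphofructokinase, the lactate step, paralogs and gluconeogenesis, 31 could be tested. With oxamate in parental cells 20 of 31 were called higher and 5 lower, beside 28.3% and 30.4% of all genes tested. In resistant cells 7 were called higher and 7 lower, beside 9.01% and 12.5% of all genes. Against parental cells, resistant cells had 20 of 31 called lower and 7 higher with vehicle, beside 37.3% and 38.4% of all genes, and 22 lower and 4 higher with oxamate, beside 39.7% and 40.6%. The difference between responses, resistant minus parental, was called negative for 20 of 31 and positive for 3, beside 21.4% and 22.7% of all genes. A negative difference is not always a smaller response, since SLC2A3 and HKDC1 rose in parental and fell in resistant cells.

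Glucose import and capture, the entry to the pathway, differed from the enzymes in resistant cells. All 5 genes listed (SLC2A1, SLC2A3, HK1, HK2 and HKDC1) were called higher with oxamate in parental cells, and in resistant cells 4 of 5 were called lower and 1 higher. HKDC1, a hexokinase-like enzyme, had log2 fold changes of 0.44 in parental and -0.65 in resistant cells, and SLC2A3, a glucose transporter, of 0.59 and -0.60. The difference between the responses was -1.09 (SE 0.06) for HKDC1 and -1.18 (SE 0.03) for SLC2A3, the 2 largest called among the pathway genes. Under oxamate SLC2A3 and SLC2A1, the widely expressed glucose transporter, stood at -1.66 and -1.59 in resistant against parental cells.

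Of the lactate step and export genes, 6 of 8 were called higher and 1 lower with oxamate in parental cells, and 2 of 8 were called higher in resistant cells. LDHA, the drug's target, had log2 fold changes of 0.62 and 0.34, within the range of the enzymes in both lines, and SLC16A1, a lactate transporter, stood at -1.05 in resistant against parental cells with vehicle (SE 0.03, adjusted p = 2.02e-14, edgeR). PFKFB4, which sets the level of an activator of phosphofructokinase, went up by 0.92 in parental cells (SE 0.03, adjusted p = 1.72e-11, edgeR). PGAM2, the muscle mutase, went up there by 0.93, a less precise value (SE 0.19, adjusted p = 0.000534, edgeR). ENO3, the muscle enolase, stood at 1.11 in resistant against parental cells with vehicle (SE 0.16, adjusted p = 1.25e-05, edgeR).

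**Figure D5:**
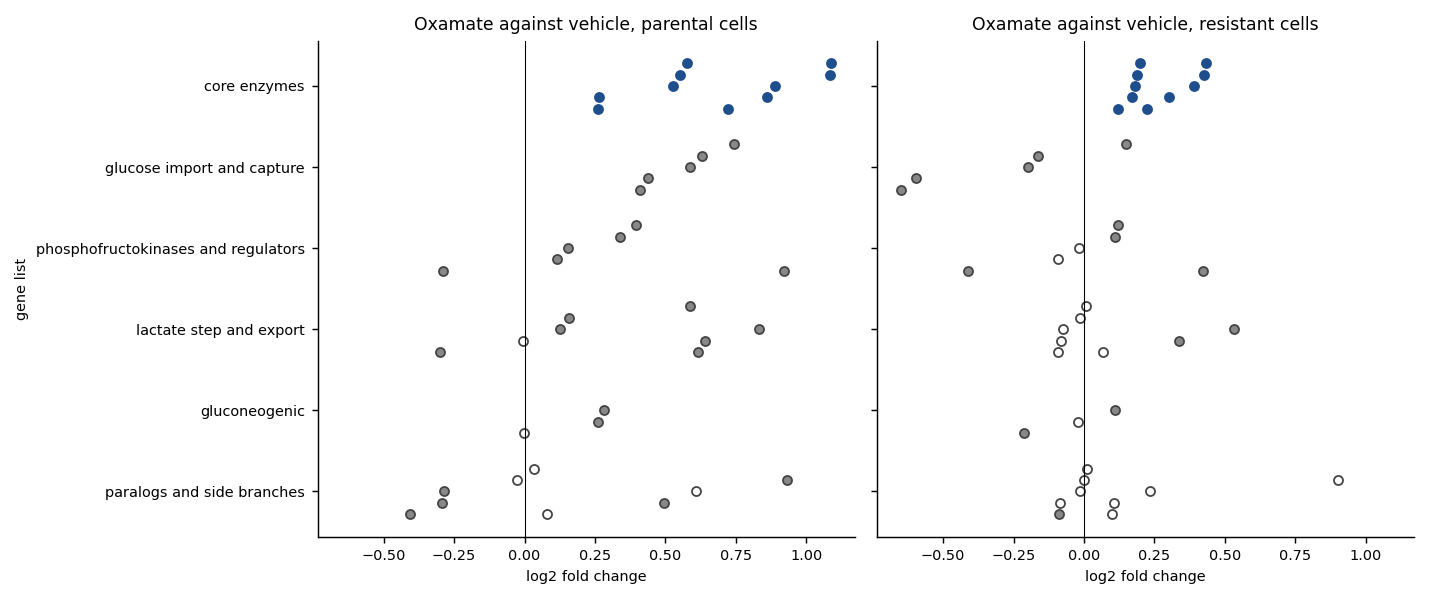
Log2 fold change with oxamate (horizontal axis) of the 10 core enzymes (blue) and of 31 other pathway genes (grey) in parental and resistant cells; each point is a gene, filled where edgeR's adjusted p was under 0.05 and open where not. The core enzymes lie right of 0 in both lines, while 4 of 5 genes of glucose import and capture lie right of 0 in parental and left of 0 in resistant cells.

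By the root mean square difference of centred log2 CPM over the 12 libraries, the genes outside the pathway whose profile lay nearest to the mean of the 10 enzymes were PLOD1 (0.0578), DDX41 (0.0613), CSRP2 (0.0640), ERO1A (0.0655) and CARHSP1 (0.0678). PLOD1, a collagen lysyl hydroxylase, had log2 fold changes of 0.78 and 0.17 with oxamate in parental and resistant cells, and of -0.41 and -1.02 between the lines with vehicle and oxamate. Nearest to ALDOC were APLN (0.140), PARD6G-AS1 (0.203) and NACAD (0.207), and nearest to ENO2 were INHA (0.0875), TMEM74B (0.105) and NDRG1 (0.106). No gene outside the pathway came as near to ALDOC as these 5 genes came to the mean profile.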

How the data were processed

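RNA-seq was measured in 12 libraries of MIAPaCa2 cells, 3 in each of 4 groups. Poly(A) RNA was made into libraries with a kit that does not mark strand, and the authors estimated gene levels with RSEM 1.2.15 after mapping to transcripts with Bowtie2 2.1.0, on build hg38 per the submitters' processing notes. The methods also describe STAR and featureCounts. The deposited values are expected counts, not normalized, and 11.6% of them are not whole numbers. RSEM divides reads that fit several transcripts, so members with near-identical copies hold an uncertain share.

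After rounding, edgeR 4.0.16 in R 4.3.3 was fitted to the 4 group means (filterByExpr, TMM, glmQLFit, glmQLFTest), with Benjamini-Hochberg adjustment over the 14582 genes tested of 26475 symbols, 6562 of which were at 0 throughout. Genes were called at an adjusted p under 0.05, and the study's fold change of 1.5 was applied beside it. CPM are TMM-normalised counts, SE is the log2 fold change divided by the root of F, and the log2 CPM used for likeness had a pseudocount of 2. Shares and ratios within libraries were compared by two-sided exact permutation tests. A 3-count floor was 0.0283 to 0.0581 CPM and covers counting error only. The 95% intervals of log2 fold changes come from the SE of the edgeR fit and so from the spread between libraries.

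Named genes were the 10 members, LDHA, the 2 largest called changes among 40 other pathway genes in each comparison, and the genes nearest in profile. HK1, HK2 and SLC2A1 are named as members of a counted list, and MALAT1, overlapping genes and near-identical copies as limits. The members and lists were chosen with earlier results of these data known. Transcript lengths and positions came from GENCODE release 29 and promoters from RefSeq (GRCh38.p14), matched by symbol for 10 of 10 members.

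The fit was tested on simulated data for oxamate in parental cells, where 181 of 200 changed genes were recovered with 20 false calls among 14374 genes. For the difference between responses, 122 of 200 were recovered with 6 false calls. Every simulated gene had a negative binomial dispersion of 0.01, which was not estimated from these data, so the figures need not hold for them. Alternatives were RLE, upper-quartile, library-size and reference-gene scaling, other filters, unrounded counts, a replicate block, DESeq2 1.42.0, limma-voom from limma 3.58.1, fits on the compared samples, other thresholds and each library left out. Deviations of same-numbered libraries correlated positively in the 3 pairs of resistant vehicle and resistant oxamate cells (0.11, 0.22 and 0.44). So did those of parental oxamate and resistant oxamate cells (0.026, 0.24 and 0.16). Those of parental oxamate and resistant vehicle cells were all positive too (0.14, 0.067 and 0.38). Signs were mixed in every pairing with parental vehicle cells. The sources used here give no shared culture or day. The main fit and the permutation tests took no pairs, and the replicate block was an alternative fit over all 12 libraries. For oxamate in resistant cells the block changed no member's call. There GAPDH had an adjusted p of 0.0110 without the block and 0.00294 with it (edgeR). The ATAC-seq and metabolite data were not analysed here.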

Additional observations from a re-analysis of the deposited data

Results flagged for a closer look

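The response to oxamate differed between resistant and parental cells for 9 of the 10 enzymes by edgeR's test of the difference itself (adjusted p under 0.05 over 14582 genes, Benjamini-Hochberg), each with the smaller increase in resistant cells. On the log2 scale the resistant minus parental difference was -0.56 for GPI, -0.53 for ALDOA, -0.65 for ALDOC, -0.35 for TPI1, -0.46 for GAPDH, -0.46 for PGK1, -0.30 for PGAM1, -0.089 for ENO1 and -0.69 for ENO2. The adjusted p ran from 7.71e-09 for GPI to 0.0446 for ENO1, whose call did not hold under several of the alternatives listed next. The responses share no libraries, and the depth of parental and resistant libraries differed as given above.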

How the results depend on the processing

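Members called stayed at 10, 10 and 10 of 10 for oxamate in parental cells, oxamate in resistant cells and resistant against parental cells with oxamate under every scaling, filter and tool run and with any library left out. The requirement of a 1.5-fold change, at an adjusted or an unadjusted p, lowered the counts to 5 with oxamate in parental cells, 0 in resistant cells, 3 for the lines with vehicle and 2 for the difference between responses. DESeq2 and limma-voom gave the same counts as edgeR at an adjusted p under 0.05. Leaving out each library in turn gave 9 to 10 members for the lines with vehicle and 8 to 10 for the difference between responses. Over the same omissions the summed share differed by 0.788 to 0.845 and 0.263 to 0.271 percentage points with oxamate in parental and resistant cells, and by -0.382 to -0.351 and -0.942 to -0.885 between the lines with vehicle and oxamate. The aldolase ratio moved by 0.35 to 0.38, 0.22 to 0.26, -0.77 to -0.75 and -0.91 to -0.87 on the log2 scale in the same order, and the enolase ratio by 0.74 to 0.86, 0.19 to 0.25, 0.49 to 0.55 and -0.12 to -0.0040.

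Scaling moved single members. ENO2 in resistant against parental vehicle cells turned to 0.10 with library size alone (adjusted p = 0.0932, edgeR) and 0.21 with reference genes (adjusted p = 0.00263, edgeR), and was -0.05 with upper-quartile factors. With library size alone the difference between responses turned to 0.017 for ENO1 and 0.024 for PKM. ENO1 also lost that call with RLE or upper-quartile factors, reference genes or no filter, and without any of 9 libraries (adjusted p 0.0601 to 0.117, edgeR). In all, 927 of the members' alternative values kept direction and call, 15 lost the call, 4 gained it and 4 reversed. The cause was not tested. The fit with a replicate block gave 10, 10, 10 and 10 members for the 4 comparisons and 10 for the difference between responses, where PKM was called (adjusted p = 0.0394, edgeR). Same-numbered libraries deviated with correlations from -0.28 to 0.44 over all groups, of mixed sign between parental vehicle cells and each other group. They were all positive between resistant vehicle and oxamate cells, and between parental oxamate cells and either resistant group. For oxamate in resistant cells, and for the lines with oxamate, the block changed no member's call. Adding near-identical copies gives no value for the ratios, since no copy of an aldolase or enolase was listed. No mitochondrially encoded gene is listed, so that part of the other denominator removed nothing. Depth did not limit the members, of which the lowest count was 1859.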

Other observations

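GAPDH is a common reference for relative mRNA levels, and set against it within each library the enzymes kept different distances. In parental cells ENO1 and PKM were lower relative to GAPDH with oxamate, by log2 differences of -0.32 and -0.31, while ALDOC and ENO2 were higher by 0.51 each, GPI by 0.29 and PGK1 by 0.31, with no overlap between the 3 vehicle and 3 oxamate libraries of any of these. TPI1 relative to GAPDH overlapped (-0.02). In resistant against parental cells with oxamate, PKM was higher relative to GAPDH by 0.41 and ENO1 by 0.20, and TPI1 overlapped (0.00), although all 3 were lower in CPM. LDHA was higher relative to GAPDH in resistant cells by 0.31 with vehicle and 0.49 with oxamate. These values were not tested, and they share the GAPDH counts of each library.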
